A study of Mus musculus with 3 samples.

Results

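Transcripts of 10 collagen genes were followed through the cells of tumors formed by B16-F10, an established melanoma cell line of the mouse. The genes were Col1a1, Col1a2, Col3a1, Col4a1, Col4a2, Col5a1, Col5a2, Col6a1, Col6a2 and Col6a3, chosen by symbol among the 32285 genes counted, and all 10 were found. Single cells were counted by a droplet-based assay in 3 libraries, each made from the pooled tumors of 3 C57BL/6J mice of 6 to 8 weeks. The libraries labelled shMib2 replicate 1 and shMib2 replicate 2 came from tumors carrying different shRNAs against Mib2, an E3 ubiquitin ligase, and those of the library labelled shCtrl carried a control shRNA. Every tumor cell was therefore of the same line, and the stroma came from the host. The 2 libraries labelled shMib2 were taken as replicates, and each library is 1 pool. Between labels, p-values thus measure only the spread between pools, and the replicate pools also carried different shRNAs. Between cell classes of the same libraries, p-values measure how class differences varied between pools.

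The label was checked first on its target. Melanoma cells had 3.17 and 2.61 CPM of Mib2 (UMIs per 1e+06 UMIs of the class) in the libraries labelled shMib2, on 494 and 411 UMIs, against 2.48 CPM on 525 UMIs in the library labelled shCtrl. Mib2 RNA was thus not lower under the shMib2 labels at the level of these counts, and groups are named below by their labels only. A UMI is a tag that marks 1 captured RNA molecule near 1 end, so values were not divided by transcript length, and ratios between genes compare captured molecules.

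Collagens are proteins of 3 intertwined chains that leave the cell as procollagen. Types I and III, with the minor type V, form the fibrils of connective tissue and are mainly made by fibroblasts. Type IV builds the network of basement membranes under endothelium and around mural cells (pericytes and smooth muscle), and type VI forms beaded microfibrils close to cells. Col1a1 and Col1a2 encode the chains of type I, Col3a1 the single chain of type III, Col4a1 and Col4a2 the common chains of type IV, Col5a1 and Col5a2 those of type V, which sets fibril diameter, and Col6a1, Col6a2 and Col6a3 those of type VI.

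Several of these genes are neighbors in the genome (mm10, GENCODE vM21). Col4a1 (chr8:11198423-11312826, minus strand) and Col4a2 (chr8:11312805-11449287, plus strand) are transcribed away from each other and overlap by 22 bases at their starts. Col3a1 (chr1:45311538-45349706, plus strand) and Col5a2 (chr1:45374321-45503282, minus strand) converge across 24614 bases with no protein-coding gene between them. Col6a1 (chr10:76708792-76726168) and Col6a2 (chr10:76595762-76623630) lie on the minus strand, 85161 bases apart, and Col6a3 (chr1:90765923-90843971) is elsewhere. Col1a1 (chr11:94936224-94953042) and Col1a2 (chr6:4504814-4541544), which must be matched to build type I, are on different chromosomes. Col5a1 (chr2:27886425-28039514) overlaps 2810430I11Rik and Gm13372 on the opposite strand, and how strand was used in counting is not given in the sources used here.

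RefSeq promoter sequences (GRCm38.p6) matched 8 of the 10 genes. Stretches before the RefSeq starts of Col1a2 and Col3a1, whose RNA was the most abundant of those matched in fibroblasts, are shown for context. Matches to a short motif are in capitals. Motif and window were set separately for each of these genes, so the match in that gene is no evidence of enrichment. Whether the motifs act at these positions was not tested. The Col1a2 stretch (chr6:4505370-4505492, plus strand) lies before the RefSeq start but inside the longer gene span that GENCODE gives, in no exon, and holds the GC box GGGCGG at 205 and 188 bases before the start. The Col3a1 stretch (chr1:45311388-45311537, plus strand, 150 to 1 bases before the start) holds TATAAA at 117 bases before the start.
Col1a2: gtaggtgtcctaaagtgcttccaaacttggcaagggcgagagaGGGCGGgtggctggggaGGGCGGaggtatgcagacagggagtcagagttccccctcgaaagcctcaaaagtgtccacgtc
Col3a1: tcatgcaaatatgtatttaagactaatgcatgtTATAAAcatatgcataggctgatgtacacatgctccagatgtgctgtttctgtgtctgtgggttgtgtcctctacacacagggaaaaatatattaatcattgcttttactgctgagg
With both strands searched, GGGCGG (reverse complement CCGCCC) was in 13.3% of 32851 promoters over the same window and in 4 of the 8 matched collagen genes, Col1a2, Col4a2, Col5a1 and Col6a2. TATAAA (reverse complement TTTATA) was in 7.57% of promoters over its window and, among the 8, in Col3a1.

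Cells were sorted by marker genes that include no collagen. After filtering and removal of doublets, 7981 and 6859 cells remained in the libraries labelled shMib2 and 8195 in the library labelled shCtrl. Fibroblasts numbered 274 and 256 against 13, mural cells 1 and 6 against 3, endothelial cells 5 and 14 against 1, melanoma cells 6083 and 3839 against 7629, and T cells 482 and 759 against 66. Fibroblasts were 3.43% and 3.73% of cells under shMib2 and 0.159% under shCtrl, so each stromal value of the library labelled shCtrl rests on few cells. The median depth of fibroblasts was 8066.5 and 12424.5 UMIs against 9715, that of melanoma cells 24384 and 41310 against 26202, and that of T cells 1691 and 2725 against 1632. Pairs of libraries shared 20 to 30 barcode sequences.

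The fibroblasts expressed their markers, with 10 of 10 markers detected in each library and a summed level of 10009.5 and 9965 CPM under shMib2 and 4135 CPM under shCtrl. The melanoma markers summed to 639, 429 and 727 CPM in these fibroblasts, in the order shMib2 replicate 1, shMib2 replicate 2 and shCtrl, against 817, 548 and 997 CPM in T cells of the same libraries. The endothelial cells carried 7302 to 15075 CPM of endothelial markers. The mural class was mixed, since 12 of 13 endothelial markers were found in its 6 cells of shMib2 replicate 2.

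Fibrillar collagens made up a large part of fibroblast RNA. Col3a1 had 14233 and 14297 CPM in fibroblasts of the libraries labelled shMib2 and 6965 CPM in those of the library labelled shCtrl. Col1a2 had 11152, 10395 and 7078 CPM and Col1a1 7946, 8210 and 5201 CPM in the same order. All 3 genes were lowest in the 13 fibroblasts labelled shCtrl. Together these 3 genes took 3.33%, 3.29% and 1.92% of all fibroblast UMIs.

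The chains of types V and VI gave fewer UMIs in the same cells, and Col5a1 and Col6a1 varied little between libraries. Col5a1 had 947, 901 and 924 CPM (924 ± 23.0, mean ± SD, n = 3 libraries) and Col5a2, its partner in the type V trimer, 1422, 1344 and 974 CPM. Col6a1 had 661, 709 and 755 CPM, Col6a2 522, 518 and 395 CPM, and Col6a3, the largest chain of type VI, 685, 732 and 1059 CPM. Col6a1 and Col6a3 were highest, and Col6a2 lowest, in the library labelled shCtrl. Of the type IV chains, Col4a1 had 243, 278 and 438 CPM and Col4a2 102, 129 and 183 CPM, and Col4a2 gave the fewest UMIs of the 10 genes in each library.

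**Figure D1:**
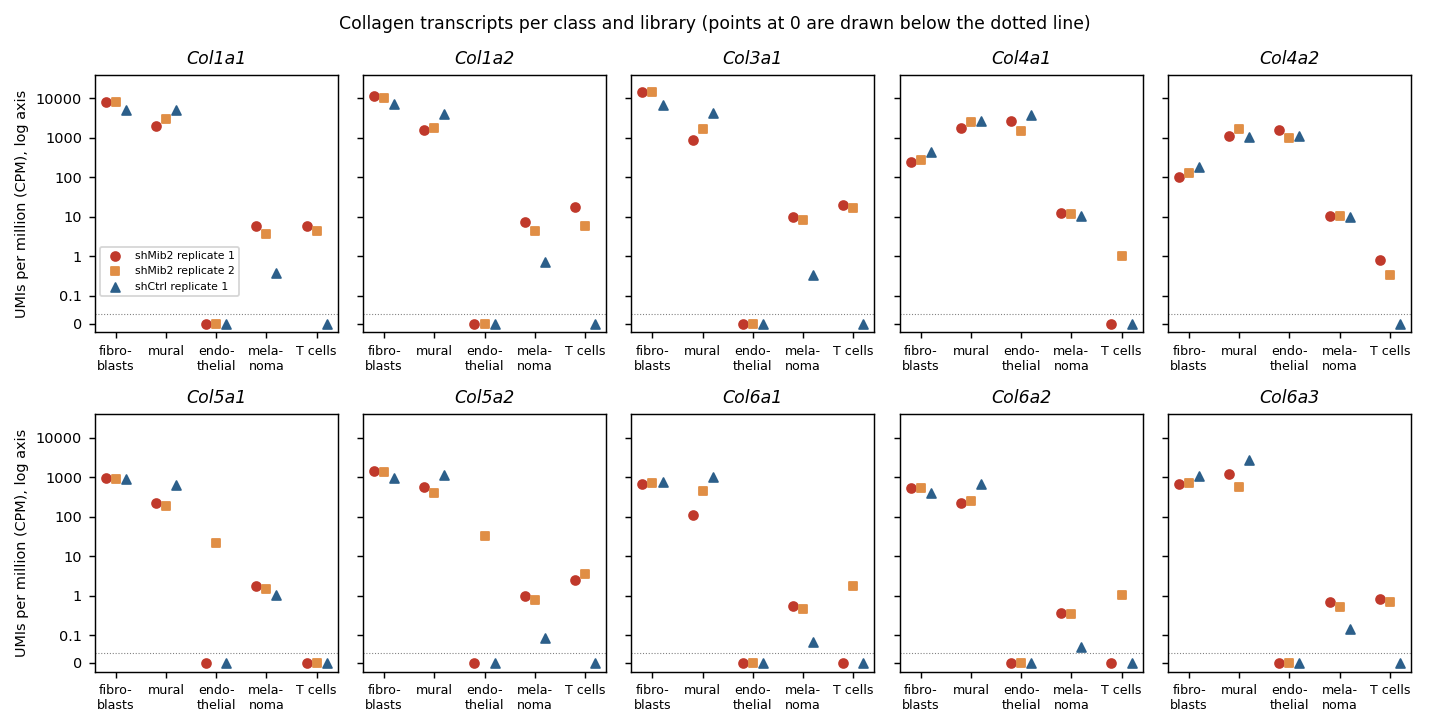
Level of each collagen gene (CPM, log axis) in fibroblasts, mural, endothelial, melanoma and T cells, with a point for each library and points at 0 drawn below the dotted line. Fibroblasts were highest for Col1a1, Col1a2 and Col3a1 in each library, and mural and endothelial cells lay above fibroblasts for Col4a1 and Col4a2. The 5201 CPM of Col1a1 in fibroblasts under shCtrl was close to the 5088 CPM of mural cells. Of these mural Col1a1 UMIs, 92 of 115 came from 1 cell that also passed the fibroblast gate.

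T cells, which are not a source of fibrillar collagen, served as background for RNA free in the suspension. Col3a1 reached 20.5 and 16.4 CPM in T cells of the libraries labelled shMib2 and was found on 0 UMIs in the 66 T cells labelled shCtrl, where 3 counts would be 22.0 CPM. Col1a1 had 5.75 and 4.52 CPM and Col1a2 18.1 and 5.91 CPM in the same T cells under shMib2. Within libraries, Col1a1 was 1383-fold (95% counting interval 659 to 2902) and 1815-fold (1054 to 3127) higher in fibroblasts than in T cells under shMib2, and at least 236-fold higher under shCtrl.

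All 10 genes were higher in fibroblasts than in T cells by edgeR's quasi-likelihood test on UMIs summed per library, with library as a block, where 31.6% of 13075 genes tested were higher and 30.8% lower. The log2 fold change was 10.92 ± 0.45 for Col1a1 (SE, adjusted p = 4.01e-20), 10.27 ± 0.37 for Col1a2 and 10.01 ± 0.47 for Col3a1, and the smallest was 7.85 ± 0.39 for Col4a2. Col5a1 was on 0 UMIs in all 1307 T cells, and was at least 1297-fold higher in fibroblasts. The median of the 10 genes was 9.71, against −0.03 for all genes tested. The call was the same for each gene in all 16 alternatives.

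Enzymes and partners of collagen production were followed as lists. Against T cells, where 31.6% of all genes were higher and 30.8% lower, fibroblasts had higher levels of 17 and a lower level of 1 of 21 genes for procollagen folding and secretion (median log2 fold change 3.93), 11 of 11 tested genes for propeptide cleavage and crosslinking (7.90), 7 of 7 tested genes for collagen degradation (6.98), 5 of 8 receptors, with 2 lower (1.99), and 13 of 16 tested other collagen chains (8.91). The gene whose pattern over 10 class-by-library sums was most like that of Col1a1, among 2996 genes and by Pearson's r of log2(CPM + 10), was Tnfaip6 (r = 0.9991), followed by Lox, the enzyme that starts crosslinking (0.9989), Cygb (0.9987) and Meg3 (0.9986). Vcan, a large proteoglycan (0.9997), Medag, Col12a1 and Igf1 were most like Col6a1. Col4a1 was most like Arhgap29 (0.988), Timp3 (0.988), Kctd17 (0.984) and Col15a1 (0.983), a basement membrane collagen. The sums share 3 libraries and differ in depth, so these r are a description.

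Endothelial cells showed the opposite composition. Col4a1 had 2639 and 1503 CPM in the endothelial cells labelled shMib2 and 3808 CPM in the 1 cell labelled shCtrl, and Col4a2 had 1579, 1016 and 1111 CPM. Col4a1 was detected in 4 of 5, 12 of 14 and 1 of 1 cells. Col1a1, Col1a2, Col3a1, Col6a1, Col6a2 and Col6a3 were on 0 UMIs in all 20 endothelial cells, which allows up to 21.2 CPM over the 3 libraries. Col5a1 and Col5a2 were found on 2 and 3 UMIs, all in shMib2 replicate 2.

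The test of endothelial cells used the single sum of 14 cells of shMib2 replicate 2, since the other libraries had fewer than 10 cells, so its spread was taken from the other classes. Against T cells, Col4a1 was higher by 10.51 ± 0.42 (log2, SE, edgeR adjusted p = 5.46e-19) and Col4a2 by 10.52 ± 0.47 (adjusted p = 1.34e-17), where 6.04% of genes were higher and 5.77% lower. Col5a1 also passed (adjusted p = 0.00529), on 2 UMIs, and Col5a2 and the 6 genes at 0 did not. In the fit on sums of at least 2 cells, which has 2 endothelial sums, the same number of genes passed, with 10.76 for Col4a1 (adjusted p = 3.73e-35) and 10.69 for Col4a2. Fibroblasts had less Col4a1 (−2.04 ± 0.21, adjusted p = 1.58e-08) and less Col4a2 (−2.67 ± 0.24, adjusted p = 7.78e-10) than these endothelial cells, where 2.89% of genes were lower and 4.43% higher. The other 8 genes were higher in fibroblasts, by at least 379-fold for Col1a1, 500-fold for Col1a2 and 664-fold for Col3a1 over the 3 libraries, by at least 24.3-fold for Col6a2, 32.6-fold for Col6a1 and 34.0-fold for Col6a3, and by 5.82 ± 0.53 (log2) for Col5a1 and 5.97 ± 0.70 for Col5a2.

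Mural cells combined both groups of collagens, but from 10 cells in all. Col4a1 had 1755 and 2549 CPM under shMib2 and 2610 CPM under shCtrl, above fibroblasts in each library, and Col4a2 had 1097, 1645 and 1062 CPM. Col1a1 had 1975, 2954 and 5088 CPM and Col3a1 878, 1659 and 4203 CPM. Col6a3 had 1207, 580 and 2655 CPM. The cells differed widely. In shMib2 replicate 2, a cell of 42433 UMIs with 12 of 13 endothelial markers held 133 of the class's 189 Col4a1 UMIs, while another of 8461 UMIs, without any endothelial marker, held 185 of 219 Col1a1 UMIs and no Col4a1 or Col4a2. This second cell had 2 mural and 2 fibroblast markers. In the library labelled shCtrl, 1 of 3 mural cells held 92 of 115 Col1a1 UMIs. With 3 mural and 3 fibroblast markers it also passed the fibroblast gate. The other 2 mural cells there held 23 Col1a1 and 25 Col4a1 UMIs.

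No library had 10 mural cells, so mural cells were tested in the planned fit that takes sums of at least 2 cells, which leaves out the single mural cell of shMib2 replicate 1 and the single endothelial cell labelled shCtrl. Against T cells all 10 genes were higher in mural cells, where 8.35% of 11152 genes were higher and 9.68% lower. Col4a1 differed by 11.14 ± 0.36 (log2, SE, edgeR adjusted p = 1.06e-35). Fibroblasts had less Col4a1 (−2.70 ± 0.18, adjusted p = 3.81e-19) and less Col4a2 (−3.10 ± 0.22, adjusted p = 6.00e-18) than mural cells, where 1.9% of genes were lower. These 2 calls were the same in all 13 alternatives.

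Fibroblasts had more Col1a2 (2.03 ± 0.32, edgeR adjusted p = 3.22e-06), Col3a1 (2.19 ± 0.42, adjusted p = 0.00014), Col5a1 (2.05 ± 0.34, adjusted p = 6.27e-06), Col5a2 (1.40 ± 0.38, adjusted p = 0.0119) and Col1a1 (1.08 ± 0.32, adjusted p = 0.0279) than mural cells, or 5 of 10, where 4.77% of genes were higher and the median of all genes was 0.64. Col6a1 (0.64, adjusted p = 0.378), Col6a2 (0.90, adjusted p = 0.106) and Col6a3 (−0.17, adjusted p = 0.844) did not pass. The 5 higher calls rest on few cells. They fell to 0 without shMib2 replicate 2, to 1 without shMib2 replicate 1, to 1 without the library block and to 0 with DESeq2. Mural and endothelial cells did not differ detectably in Col4a1 (0.39 ± 0.20, edgeR adjusted p = 0.650) or Col4a2 (0.25 ± 0.23, adjusted p = 0.805), and the other 8 genes were higher in mural cells, where 0.816% of genes were higher and 0.448% lower. These 8 genes became 5 of 10 without shMib2 replicate 1. The mural sum of shMib2 replicate 2 includes the cell with 12 of 13 endothelial markers, which held 133 of its 189 Col4a1 UMIs. Without barcodes passing 2 stromal gates, Col4a1 (−0.72, edgeR adjusted p = 0.218) and Col4a2 (−0.82, adjusted p = 0.229) changed sign. The comparisons of stromal classes share their T cell and fibroblast sums.

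Between fibroblasts and mural cells, 4.77% of all genes were higher in fibroblasts and 1.9% lower. Fibroblasts had higher levels of 8 of 21 folding and secretion genes (list median 1.19 against 0.64 for all genes). Among these were Serpinh1, the collagen chaperone (1.45, edgeR adjusted p = 1.95e-06), Fkbp10 (1.96) and P4hb (1.21). Of 11 tested cleavage and crosslinking genes 8 were higher (median 2.21), including Loxl1 (2.90, adjusted p = 1.46e-06) and Pcolce, an enhancer of procollagen cleavage (2.21). Of 7 degradation genes 4 were higher (median 3.16), including the gelatinase gene Mmp2 (3.16) and the inhibitors Timp1 (2.55) and Timp2 (3.48). Among other chains, Col14a1 was higher (4.55, adjusted p = 3.59e-10), as was Col5a3 (1.58), and Col18a1, a basement membrane collagen, was lower (−3.54, adjusted p = 1.27e-12), with a list median of 0.81 over 10 tested. The receptor Itga1 was lower (−5.14, adjusted p = 4.95e-13) and Ddr2, a receptor for fibrillar collagen, higher (1.83, adjusted p = 0.00836), with a list median of 0.08 over 7 tested. These calls rest on the same few mural cells. Over 13 alternatives, Ddr2 lost its call in 5, P4hb in 4, Pcolce and Col5a3 in 3 each, and the other genes named here in 1 or 2. Serpinh1, Mmp2 and Col18a1 kept theirs in all 13.

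The chains of 1 type also stood in different ratios in some classes. The ratio of Col4a1 to Col4a2 UMIs was 2.39, 2.16 and 2.38 in fibroblasts (shMib2 replicate 1, shMib2 replicate 2 and shCtrl) but 1.17, 1.17 and 1.08 in melanoma cells. Endothelial cells had 1.67, 1.48 and 3.43 (1 cell) and mural cells 1.60 (1 cell), 1.55 and 2.46, so both overlapped fibroblasts. In the fibroblasts labelled shCtrl, 1 cell that also passed the mural gate held 43 of 62 Col4a1 and 16 of 26 Col4a2 UMIs. The ratio of Col1a1 to Col1a2 was 0.713, 0.790 and 0.735 in fibroblasts. In mural cells it was 1.29 (1 cell), 1.67 and 1.29, but without the cell with the most Col1a1 it was 0.895 in shMib2 replicate 2 and 0.793 under shCtrl, so the higher mural ratio rested on single cells. Col6a2 to Col6a3 was 0.763 and 0.707 in fibroblasts labelled shMib2 and 0.373 in those labelled shCtrl.

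Melanoma cells held little collagen RNA per cell but a large part of the type IV total. Col4a1 had 12.6 and 12.1 CPM in melanoma cells labelled shMib2 and 10.7 CPM in those labelled shCtrl, and Col4a2 had 10.8, 10.4 and 9.93 CPM. Col5a1 had 1.71, 1.49 and 1.07 CPM. Col4a1 and Col4a2 thus stood at like levels in the 3 libraries, and Col5a1 was lowest under shCtrl. Col1a1 had 5.84 and 3.64 CPM under shMib2 and 0.378 CPM under shCtrl, and Col3a1 had 10.0 and 8.14 CPM against 0.345 CPM, so that both shMib2 libraries were far above the library labelled shCtrl.

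By share of a library's UMIs, 69.9% (95% Wilson interval 68.2 to 71.6), 55.5% (53.8 to 57.1) and 90.9% (89.7 to 92.0) of Col4a1 lay in melanoma cells, which were 76.2%, 56.0% and 93.1% of all cells in the order shMib2 replicate 1, shMib2 replicate 2 and shCtrl. For Col4a2 the shares were 80.1%, 66.5% and 95.2%. Fibroblasts held 88.2%, 91.9% and 66.2% of Col1a1 in the same libraries. Their share of Col5a1 was 83.3%, 86.5% and 32.4%, and melanoma cells held 9.69%, 6.34% and 55.9% of it. The share of Col1a1 in fibroblasts, 82.1% on average, was 66.1% with scored doublets kept.

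**Figure D2:**
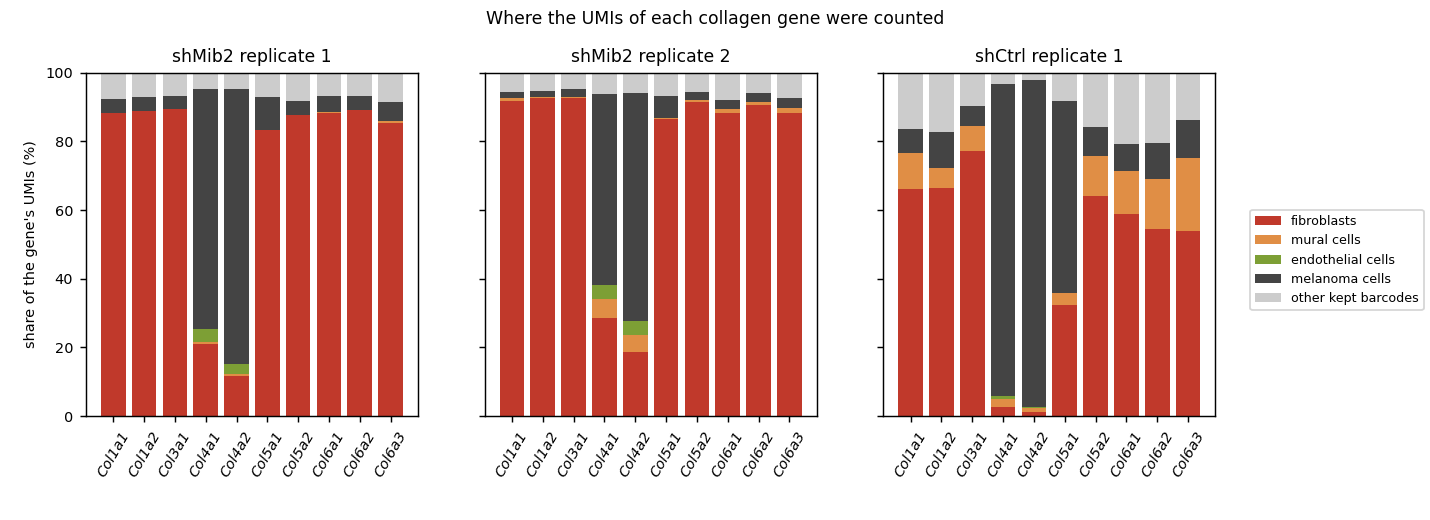
Share of each collagen gene's UMIs in each library (percent) that lay in fibroblasts, mural, endothelial and melanoma cells and in all other kept barcodes. Melanoma cells held 55.5% to 90.9% of Col4a1 UMIs, and fibroblasts 66.2% to 91.9% of Col1a1 UMIs.

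Per cell, melanoma cells held 15.0%, 12.9% and 6.22% of the Col4a1 UMIs of a fibroblast and 30.8%, 23.8% and 13.8% of its Col4a2 UMIs (shMib2 replicate 1, shMib2 replicate 2 and shCtrl). For Col1a1, Col1a2, Col3a1, Col5a2, Col6a1, Col6a2 and Col6a3 the corresponding values were 0.194% to 0.299% in shMib2 replicate 1, 0.127% to 0.208% in shMib2 replicate 2 and 0.0126% to 0.0352% under shCtrl. Col5a1 lay between, at 0.524%, 0.489% and 0.294%. The ratio of Col5a1 to Col5a2 UMIs in melanoma cells was 1.72, 1.93 and, under shCtrl, 12.6 (226 against 18 UMIs, 95% interval 7.80 to 20.2), against 0.666, 0.671 and 0.949 in fibroblasts. The ratio of Col3a1 to Col1a2 in melanoma cells was 1.34 and 1.82 under shMib2, against 1.28 and 1.38 in fibroblasts of those libraries, and 0.468 under shCtrl, against 0.984.

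**Figure D3:**
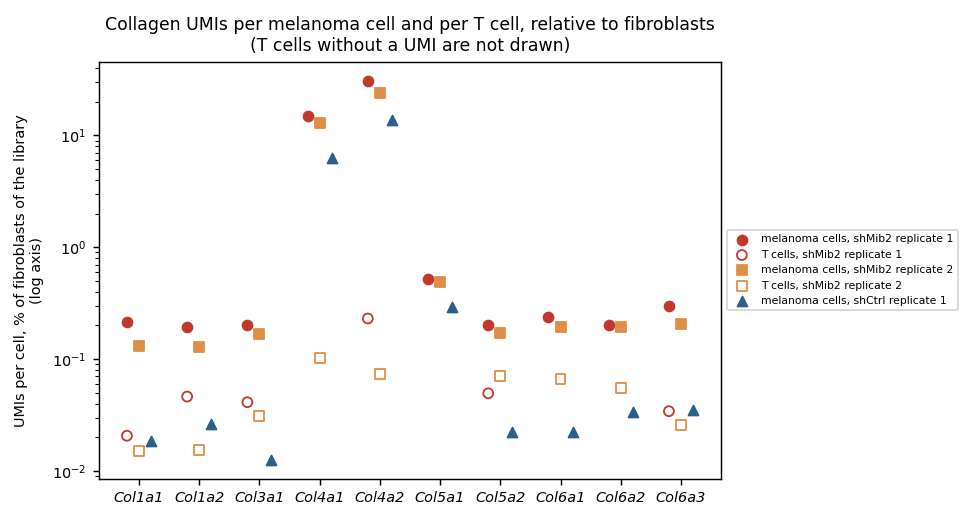
UMIs per melanoma cell (filled points) and per T cell (open points) as a percentage of UMIs per fibroblast for the 10 collagen genes (log axis), with a point for each library and T cells without a UMI not drawn. In melanoma cells Col4a1 and Col4a2 lay between 6.22% and 30.8%, and 7 of the other genes below 0.3% in each library.

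Against T cells and in CPM, melanoma cells had higher Col4a1 (3.86 ± 0.58 log2, SE, edgeR adjusted p = 6.51e-07), Col4a2 (4.25 ± 0.62, adjusted p = 4.21e-07) and Col5a1 (adjusted p = 0.003, with all T cells at 0), where 34.5% of genes were higher and 31.3% lower. Lower in melanoma cells were Col1a2 (−1.33 ± 0.42, adjusted p = 0.00636), Col3a1 (−1.61 ± 0.46, adjusted p = 0.003) and Col5a2 (−2.38 ± 0.72, adjusted p = 0.00426), and Col1a1 (−0.69), Col6a1, Col6a2 and Col6a3 did not pass. Per cell, melanoma cells, which were deeper, held 10.3 and 8.71 times the Col1a1 of T cells under shMib2 and 4.94 and 5.39 times the Col3a1. With B cells in place of T cells no gene passed in either direction, and without the library block none was lower. Without shMib2 replicate 1, 5 genes were lower, and without shMib2 replicate 2, 2 were higher and 2 lower.

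The share of melanoma cells with a Col4a1 UMI was 25.0%, 33.0% and 23.3% at full depth (shMib2 replicate 1, shMib2 replicate 2 and shCtrl). In T cells it was 0%, 0.395% and 0%, with 0 of 482 and 0 of 66 cells, which allow up to 0.622% and 4.55%. With each cell thinned to 1000 UMIs, it was 1.17%, 1.57% and 1.14% in melanoma cells and 0%, 0.268% and 0% in T cells. For Col3a1 the thinned shares were 0.943%, 0.982% and 0.0394% in melanoma cells against 3.38%, 2.15% and 0% in T cells. At this equal depth they were below those of T cells under shMib2, while per whole cell they held 4.94 and 5.39 times the Col3a1. Thinning cut melanoma cells (median 24384 and 41310 UMIs under shMib2) far more than T cells (1691 and 2725). The thinned shares thus do not compare free RNA per droplet, and its part was not tested. In fibroblasts 97.8%, 96.7% and 69.2% of thinned cells had a Col3a1 UMI, and 23.0%, 18.3% and 30.8% a Col4a1 UMI. Thinning left out 39, 72 and 17 melanoma cells, 68, 14 and 9 T cells, and 4, 10 and 0 fibroblasts.

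The partner genes were read against the 34.5% of all genes that were higher and the 31.3% that were lower in melanoma cells than in T cells. Higher were 13 of 21 folding and secretion genes (median 2.02, against 0.13 for all genes), led by Serpinh1 (4.64, edgeR adjusted p = 6.34e-22) and the lysyl hydroxylases Plod2 (3.18) and Plod1 (3.46). The matricellular gene Sparc (4.33, adjusted p = 4.01e-21), Pcolce (3.75) and Loxl2 (3.46) were among 5 higher and 3 lower of 11 cleavage and crosslinking genes (median 1.67). Degradation genes were higher in 6 and lower in 1 of 7 (median 3.05), with Mmp14, a membrane-bound collagenase (4.65, adjusted p = 2.02e-14), Timp2 (3.05) and Ctsk (3.56). Among receptors 2 were higher and 4 lower of 8 (median −0.87), with Ddr2 (3.81) and Ddr1 (3.77) higher and Itga2 (−6.87, adjusted p = 3.15e-12) lower. Other type IV chains were higher, Col4a4 by 5.82 (adjusted p = 5.17e-10) and Col4a5 by 4.35 (adjusted p = 1.62e-05), as was Col16a1 (2.80), among 6 higher and 2 lower of 16 other chains (median 2.72). The counts of the other chains and of the cleavage and crosslinking genes thus lay near those of all genes.

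Fibroblasts varied among themselves over a wide range. The 10 genes summed to a median of 3.65% of a cell's UMIs in shMib2 replicate 1 (0.0113% to 13.7%, 274 cells), 3.40% in shMib2 replicate 2 (0.00621% to 11.3%, 256 cells) and 1.20% under shCtrl (0.0138% to 5.94%, 13 cells). The 10% of cells with the most UMIs of types I and III held 24.6% and 26.6% of those UMIs in the libraries labelled shMib2. Type IV was more uneven, since 101 of 274 and 87 of 256 cells had no type IV UMI and the highest 10% of cells held 46.5% and 56.6%. All 10 genes were detected in 78, 95 and 3 cells.

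Chains of 1 type varied together across fibroblasts, and so did Col1a1 and Col3a1, which belong to different types. Spearman's rho of the share of UMIs was 0.86 in 274 cells of shMib2 replicate 1 and 0.89 in 256 cells of shMib2 replicate 2 for Col1a1 and Col1a2, 0.68 and 0.70 for Col1a1 and Col3a1, and 0.56 and 0.65 for Col4a1 and Col4a2. For Col6a1 and Col6a2 it was 0.55 and 0.52, and for Col5a1 and Col5a2 0.47 and 0.52. Other pairs across types had lower values. Between Col1a1 and Col4a1 it was −0.14 and −0.11, and between Col3a1 and Col4a1 0.0045 and 0.073. Between Col1a1 and Col6a3 it was 0.29 and 0.21, and between Col3a1 and Col6a3 0.28 and 0.26. The summed types I and III had rho of 0.14 and 0.34 with a myofibroblast list (Acta2, Tagln, Postn, Cthrc1, Tnc, Lrrc15), 0.20 and 0.16 with an adventitial list (Pi16, Cd34, Ly6c1, Ly6a, Dpp4) and 0.00 and 0.10 with UMIs per cell. These are descriptions over cells of 1 library each, which share depth and free RNA. Acta2, a contractile actin of myofibroblasts and mural cells, was detected in 39.8%, 38.7% and 53.8% of fibroblasts.

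**Figure D4:**
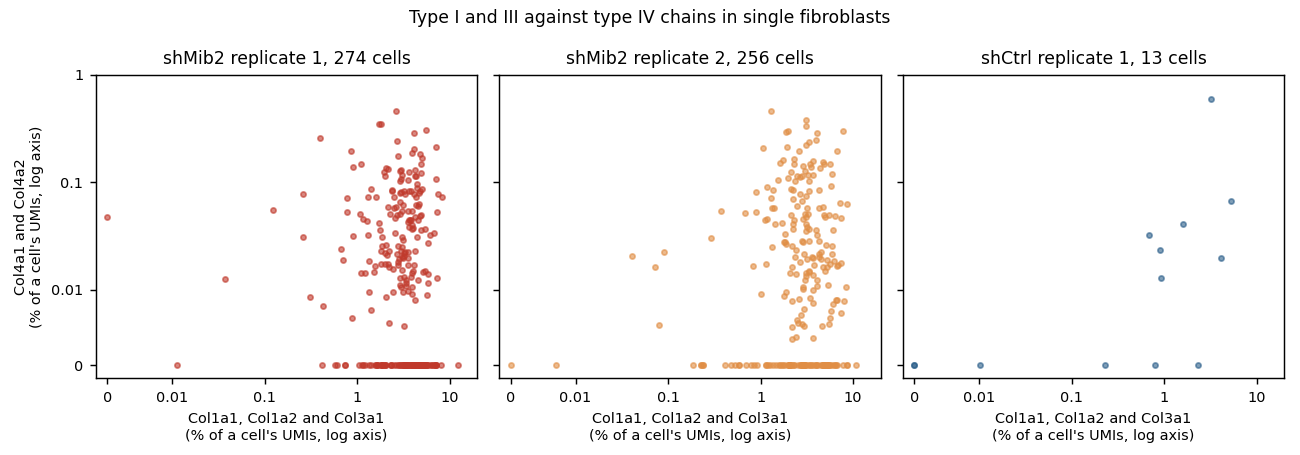
Percent of each fibroblast's UMIs that came from type IV chains against the percent from type I and III chains, with a panel for each library, a point for each cell, log axes and cells without UMIs drawn at 0. The medians for types I and III were 3.23% and 2.95% in the libraries labelled shMib2 and 0.897% in the library labelled shCtrl, and 101, 87 and 6 cells had no type IV UMI.

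Whether collagen RNA per fibroblast differed with the shRNA was tested on 3 sums, 2 labelled shMib2 and 1 labelled shCtrl, which leaves 1 residual degree of freedom and assumes that the lone library varies like the others. Col3a1 was 1.07 ± 0.07 higher under shMib2 (log2, SE, edgeR adjusted p = 1.34e-05), Col1a1 0.67 ± 0.08 (adjusted p = 0.000584), Col1a2 0.64 ± 0.08 (adjusted p = 0.000541) and Col5a2 0.54 ± 0.12 (adjusted p = 0.0288), or 4 of 10 genes where 1.73% of 10684 genes were higher. Col6a3 was lower (−0.55 ± 0.13, adjusted p = 0.0422), where 1.19% of genes were lower. Col4a1 (−0.71 ± 0.18, adjusted p = 0.0741), Col4a2 (−0.63, adjusted p = 0.442), Col5a1 (0.03), Col6a1 (−0.11) and Col6a2 (0.43, adjusted p = 0.274) did not pass. The median of all genes was 0.19. With DESeq2, Col3a1 alone of the 10 genes stayed called.

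Single cells weighed on the shCtrl side of this comparison. Of its 13 fibroblasts, 1 held 245 of 737 Col1a1 UMIs, and 2 had no UMI of Col1a1, Col1a2 or Col3a1. Another cell, which also passed the mural gate with 2 mural markers, held 43 of 62 Col4a1 UMIs and 16 of 26 Col4a2 UMIs. Without fibroblasts that pass a further stromal gate, Col4a1 fell to 144 CPM in the library labelled shCtrl and its log2 fold change was 0.86, of opposite sign, and Col6a3 was no longer called (−0.36, edgeR adjusted p = 0.179). The summed fibroblast markers, at 10009.5 and 9965 CPM against 4135 CPM, moved with the fibrillar genes, and the part of marker content in the result was not tested.

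Of the partner lists, 3 of 11 cleavage and crosslinking genes were higher in fibroblasts labelled shMib2, Loxl1 (1.23, edgeR adjusted p = 0.00133), Pcolce (1.09, adjusted p = 0.0034) and Sparc (0.55, adjusted p = 0.00126), with a list median of 0.55. Timp2 (1.05, adjusted p = 0.00185) and Mmp2 (1.07, adjusted p = 0.00479) were higher among 7 degradation genes (median 0.09), and Itgb1 was lower (−0.75, adjusted p = 0.0137) among 7 receptors (median −0.27). Col14a1 was higher (1.04, adjusted p = 0.00555) and Col15a1 lower (−1.45, adjusted p = 0.0234) among 11 other chains (median 0.53). Of 19 tested folding and secretion genes 0 passed by edgeR, with 3 at an unadjusted p under 0.05 (median 0.26). These genes were named after their values were seen, and the shCtrl side was the same 13 fibroblasts. Over all 10684 genes tested in fibroblasts, 1.73% were higher and 1.19% lower under shMib2, with a median of 0.19.

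In melanoma cells, 3 genes of fibrillar types passed between the labels, and the type IV chains did not. Col3a1 was 4.67 ± 0.17 higher under shMib2 (log2, SE, edgeR adjusted p = 0.00241), Col1a1 3.60 ± 0.35 (adjusted p = 0.0395) and Col5a2 3.32 ± 0.30 (adjusted p = 0.0330), or 3 of 10 genes where 0.523% of 15665 genes were higher. By edgeR 0 of the 15665 genes were lower, with 1183 lower at an unadjusted p under 0.05, and 0 of the 10 genes were lower with DESeq2. Col6a1 (2.87, adjusted p = 0.0534), Col1a2 (2.97, adjusted p = 0.0598), Col6a2 (2.71, adjusted p = 0.0839) and Col6a3 (2.01, adjusted p = 0.124) did not pass, nor did Col4a1 (0.17, adjusted p = 0.239), Col4a2 (0.05, adjusted p = 0.687) and Col5a1 (0.54, adjusted p = 0.223). The number of higher genes was 7 with DESeq2 and 0 without a filter on low counts.

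The share of fibroblasts moved with this result, at 3.43% and 3.73% of cells against 0.159%. In T cells Col3a1 had 20.5 and 16.4 CPM under shMib2 and 0 UMIs in the 66 cells labelled shCtrl. There 3 counts would be 22.0 CPM, so whether its level in T cells differed cannot be told. Within the melanoma cells, 8 of 10 fibroblast markers had a higher level in each shMib2-labelled library than under the shCtrl label and 0 had a lower level in each, with Dcn, a fibroblast proteoglycan, at 1.39 and 1.12 CPM against 0.199 CPM and Mfap5 at 1.45 and 1.20 CPM against 0.104 CPM. Their summed level, 85.6 and 82.6 CPM against 78.9 CPM, was mostly Fbln1, at 79.9 and 78.3 CPM against 77.7 CPM. How many of all genes were higher in each shMib2-labelled library was not determined, so the 8 of 10 markers are a description. Under the shCtrl label, Dpt rested on 4 UMIs and Pdgfra on 12. The part of free RNA in the melanoma result was not tested. The 80 Col1a1 UMIs of 7629 melanoma cells labelled shCtrl included 10 from 1 cell, and 1 cell held 8 of 14 Col6a1 UMIs and 1 held 11 of 31 Col6a3 UMIs. Of 69 tested genes of the 5 partner lists, 0 passed in melanoma cells by edgeR, with 13 at an unadjusted p under 0.05. In T cells only Col1a2 and Col3a1 had enough UMIs to test, and neither passed by edgeR or DESeq2, with 0 UMIs under shCtrl, where 0.376% of 8510 genes were higher and 0.294% lower. Mural cells were too few to test. Their Col1a1 was 1975 CPM (exact Poisson 95% interval 1170 to 3121) and 2954 CPM (2575 to 3372) under shMib2 and 5088 CPM (4201 to 6107) under shCtrl. Under shCtrl, 92 of the 115 UMIs came from 1 cell that also passed the fibroblast gate.

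**Figure D5:**
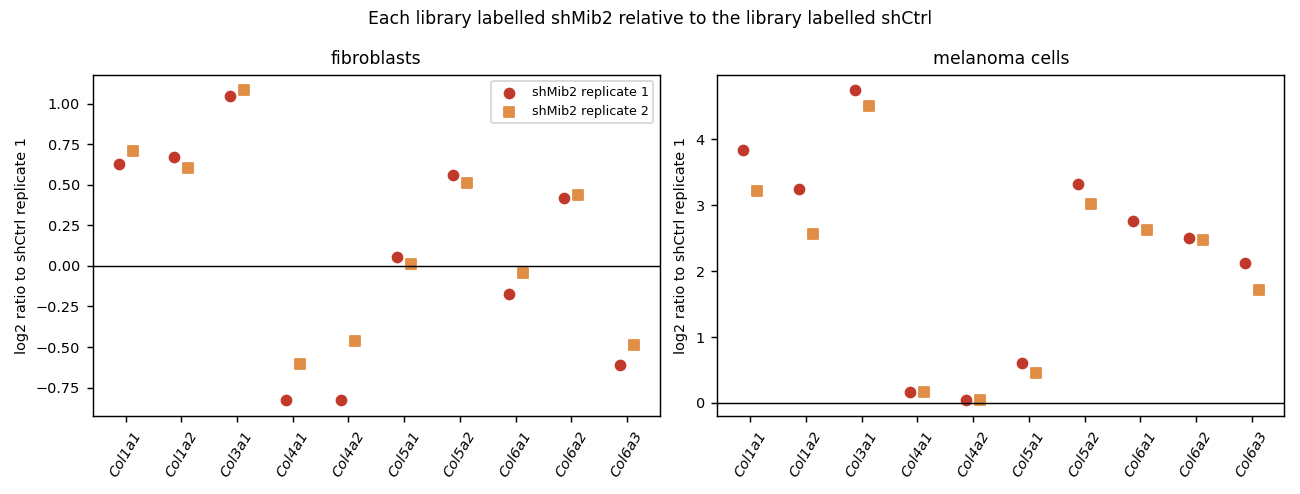
Log2 ratio of each library labelled shMib2 to the library labelled shCtrl for the 10 collagen genes in fibroblasts and in melanoma cells. In melanoma cells Col3a1 stood at 4.74 and 4.50 and Col4a1 at 0.17 and 0.16, and in fibroblasts Col3a1 stood at 1.05 and 1.08 and Col4a1 at −0.83 and −0.61.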

How the data were processed

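The files deposited by the authors are whole-number UMI counts by gene and barcode for 3 libraries, not normalized. The submitters' processing notes name Cell Ranger 4.0.0 and mm10. Barcodes numbered 9428 and 8388 (shMib2 replicates 1 and 2) and 9558 (shCtrl), with 190904274, 203298455 and 243926188 UMIs. Barcodes with under 200 genes or over 20% mitochondrial UMIs (860, 1105 and 741) and scored doublets (587, 424 and 622, from 0.8% per 1000 barcodes) were left out.

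Cells were gated by detected markers, collagens excluded: fibroblasts at least 3 of 10, mural cells 2 of 7, endothelial cells 4 of 13, melanoma cells 4 of 9 with a share of UMIs over these markers of at least the library's median share divided by 3, T cells 2 of 4. Barcodes passing gates of different families, or tied between stromal gates (167, 139 and 35), were left out of the classes as mixed. A further 854, 1604 and 402 kept barcodes passed no gate, and 58, 140 and 6 were myeloid cells. All of these stayed in the totals for shares of UMIs. In shMib2 replicate 1, mixed barcodes held 7.13% of Col1a1 UMIs. The 10 genes, the lists and the gates were chosen with earlier results of these data known. UMIs were summed per class and library, since cells are not replicates, and sums of at least 10 cells were tested with edgeR 4.0.16 (TMM, filterByExpr, quasi-likelihood test, Benjamini-Hochberg over all genes tested, threshold 0.05), with library as a block between classes. The block rests on all classes coming from the same library. Mural cells reached no such sum, so the planned fit on sums of at least 2 cells is given. The test of the difference between melanoma cells and fibroblasts was added after the data were seen, and its fit had no library block. The SE of an edgeR fold change was not fitted directly. It is the absolute log2 fold change divided by the square root of the F statistic of the quasi-likelihood test, so it is approximate. Intervals are Wilson for shares and exact Poisson for levels, at 95%, and cover counting error only. A count of 0 is given with a floor of 3 counts. Fitted fold changes against a class at 0 depend on a prior and were replaced by bounds. The scripts were tested on simulated data.

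All 10 genes are named. From each partner list the 2 or 3 genes with the lowest p in fibroblasts versus mural cells and in melanoma cells versus T cells are named. Likeness was ranked over sums of at least 10 cells for genes with a mean of at least 50 CPM. Alternatives covered cell filters (none, or a minimum of 500 genes with a 10% limit on mitochondrial UMIs), doublets, gates, scaling, DESeq2 1.42.0, the filter on low counts, the fewest cells in a sum (2 or 20), the block, B cells in place of T cells, thinning to 1000 UMIs and each library left out. Software was R 4.3.3 with limma 3.58.1, and Python 3.11.15 with scipy 1.17.1, numpy 2.4.6, matplotlib 3.10.9 and pandas 2.3.3.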

Additional observations from a re-analysis of the deposited data

Results flagged for a closer look

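The shMib2 versus shCtrl effect differed between melanoma cells and fibroblasts for 6 of the 10 collagen genes when the difference itself was tested in 1 edgeR fit over 6 sums, where 50 of 15864 genes passed. The difference, melanoma cells minus fibroblasts on the log2 scale, was 2.86 ± 0.35 (SE) for Col1a1 (adjusted p = 0.0369), 3.53 ± 0.17 for Col3a1 (adjusted p = 0.00392), 2.71 ± 0.26 for Col5a2 (adjusted p = 0.0166), 2.90 ± 0.25 for Col6a1 (adjusted p = 0.0127), 2.2 ± 0.24 for Col6a2 (adjusted p = 0.0233) and 2.48 ± 0.28 for Col6a3 (adjusted p = 0.0248). It did not pass for Col1a2 (2.26, adjusted p = 0.0867), Col4a1 (0.81, adjusted p = 0.276), Col4a2 (0.60, adjusted p = 0.820) or Col5a1 (0.44, adjusted p = 0.483). This fit had no library block, although the melanoma and fibroblast sums came from the same libraries, so their pairing was not used. The library labelled shCtrl supplied 13 fibroblasts, and 1 cell held 8 of the 14 Col6a1 UMIs of its melanoma cells. The part of free fibroblast RNA in these differences was not tested.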

How the results depend on the processing

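Of 1993 values under alternatives, 1701 were of single genes. Among these, 1556 kept their direction and side of the threshold or stayed within the spread, 84 lost and 27 gained a call, 10 moved and 24 changed sign. The other 292 were counts of genes passing, or shares, and were labelled by how far they moved. Here 263 stayed near the main value, 16 counts fell, 11 counts rose and 2 shares moved. All 10 genes were higher in fibroblasts than in T cells under each alternative run. Cell number limits the stromal values, with 1 mural cell in shMib2 replicate 1 and, under shCtrl, 13 fibroblasts, 3 mural cells, 1 endothelial cell and 66 T cells.

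Between labels in fibroblasts, the 1 lower gene became 2 without a cell filter, with the stricter filter, with doublets kept, with 1 more marker per gate, without TMM and without a low-count filter, and 0 with DESeq2 or without barcodes passing 2 stromal gates. The 4 higher genes became 1 with DESeq2. The 3 higher genes in melanoma cells became 5 with the stricter filter or doublets kept, 8 without TMM, 7 with DESeq2 and 0 without a low-count filter. The 5 genes higher in fibroblasts than in mural cells became 2 without TMM, 3 with DESeq2 size factors, 0 with DESeq2 and 0 to 7 with 1 library left out. The 3 genes lower in melanoma than in T cells became 1 with DESeq2, 0 with B cells and 2 to 5 with 1 library left out, and the 3 higher genes became 0 with B cells and 2 to 3 with 1 library left out. The 8 genes higher in mural than in endothelial cells became 5 to 9 with 1 library left out. The Col1a1 share in fibroblasts was 66.1% with doublets kept, and the Col4a1 share of melanoma cells with a UMI was 1.29% after thinning, against 27.1%. The causes were not tested.

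Without the library block, 0 genes were lower in melanoma than in T cells, 1 was higher in fibroblasts than in mural cells and 4 were higher in mural than in endothelial cells. No paired analysis was possible because shMib2 and shCtrl libraries share only the number 1.

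Signs changed between labels in fibroblasts for Col5a1 (−0.00081 with doublets kept, −0.041 with 1 more marker, −0.017 without barcodes passing 2 stromal gates) and, without those barcodes, for Col4a1 (0.86), Col4a2 (0.62) and Col6a1 (0.019). The same step changed Col6a3 in fibroblasts versus mural cells (0.16) and Col4a1 (−0.72) and Col4a2 (−0.82) in mural versus endothelial cells. DESeq2 changed Col6a1 (0.29), Col6a2 (0.81) and Col6a3 (0.98) in endothelial versus T cells. B cells in place of T cells changed Col5a2 (7.97), Col6a1 (7.22), Col6a2 (6.77), Col6a3 (7.54) and Itga2 (5.15) in melanoma cells. With 1 library left out, the log2 fold change in melanoma versus T cells ran between −2.65 and 7.37 for Col6a1 and between −2.27 and 6.94 for Col6a2, that in fibroblasts versus mural cells between −0.24 and 1.00 for Col6a1, −0.45 and 1.43 for Col6a2 and −1.12 and 0.64 for Col6a3, and that in mural versus endothelial cells between −0.41 and 0.72 for Col4a1 and −0.92 and 0.63 for Col4a2. Values above 5 are fitted against classes at or near 0 and bound nothing. No value past a sign change passed its test.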
